A study of Homo sapiens with 6 samples.

Results

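The insulin-like growth factor (IGF) ligand IGF2, the receptors IGF1R and IGF2R and the 7 binding proteins IGFBP1 to IGFBP7 were followed in Hep G2 cells, a human liver tumor line, with or without EFTUD2 overexpression. These 10 genes were taken by name from a deposited table of 23524 genes, in which each name was found once. The sequenced EFTUD2 cells stably overexpressed EFTUD2, a GTPase of the spliceosome. The study made its Hep G2 lines by infection with a lentivirus for EFTUD2 or with the vector lentivirus, and its methods describe puromycin selection of stable cells. The labels call the sequenced controls only control. If these were the vector cells, both groups share infection with a lentivirus. Each group has 3 libraries, numbered 1 to 3, of mRNA enriched by poly-A selection. The study describes its data in general as coming from independent experiments, but the labels do not tie a library to a culture and do not say whether a line is 1 clone. The p-values therefore measure only the spread between these libraries, which may be technical. The values are FPKM, that is fragments scaled to transcript length and to the mapped fragments of the library, so that levels of different genes within a library are on a scale per length.

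IGF2 is a growth factor that is abundant in fetal liver and in many liver tumors. It signals through IGF1R, a tyrosine kinase that feeds the PI3K-AKT and MAPK cascades, while IGF2R, the cation-independent mannose 6-phosphate receptor, takes IGF2 up for lysosomal degradation. The secreted IGFBPs hold IGFs in the extracellular space, and proteases set the growth factor free by cutting them. In the liver, IGFBP1 is a hepatocyte product that is repressed by insulin, and IGFBP3 is the main carrier of IGFs in blood.

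IGFBP3 is the member for which the study lists qPCR primers, so its pair and the stretch it amplifies are shown. The study reports significant differential expression from its own RNA-seq comparison, and it checked some of the upregulated genes by qPCR. Its text and legends do not say whether IGFBP3 was among the genes checked. The product was read from the principal IGFBP3 transcript of GENCODE release 29 (GRCh38), on the minus strand at chr7:45914883-45916600, and the capitals in it mark the ends where the primers bind, the last of them complementary to the reverse primer.
Forward primer: GGGGTGTACACATTCCCAAC
Reverse primer: AGGCTGCCCATACTTATCCA
Product: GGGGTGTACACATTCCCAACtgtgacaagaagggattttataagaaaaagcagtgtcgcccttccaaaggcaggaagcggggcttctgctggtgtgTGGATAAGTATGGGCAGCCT
The product spans 116 bp of coding sequence, from exon 3 into exon 4. Both primers matched 7 of the 11 annotated IGFBP3 transcripts without a mismatch, and no transcript of another gene. In transcripts of the 6 other binding proteins the forward primer had at least 5 mismatches and the reverse primer at least 7, and neither matched one of them in full.

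Across the whole table, the FPKM values summed to between 404342 and 434542 per library, and the number of reads behind them is unknown. EFTUD2 itself measured 41.1, 54.4 and 46.3 FPKM (controls 1 to 3) and 106.6, 102.9 and 109.5 FPKM (EFTUD2 1 to 3). The groups did not overlap, and the 3 EFTUD2 libraries lay close together (log2 fold change 1.16, standard error 0.12, adjusted p = 0.13, limma). EFTUD2 replicate 3 stood apart from its group, with an SD of the log2 differences over genes of 0.51 to replicate 1 and 0.60 to replicate 2, against 0.23 between replicates 1 and 2. Among the controls, replicate 1 lay farther from replicates 2 and 3 (0.363 and 0.295) than these lay from each other (0.213). The hepatocyte markers were present in all libraries, with albumin (ALB) at 1773 FPKM or more and alpha-fetoprotein (AFP) at 744.9 FPKM or more. In control replicate 2, 9 of the 10 hepatocyte markers were at their lowest among the controls, whereas 31.9% of all genes averaging 1 FPKM or more were lowest there. The exception was HNF4A, at 65.4, 79.9 and 75.6 FPKM (controls 1 to 3), which was highest there. SERPINA1 was only slightly lower there, at 1901 FPKM against 1937 FPKM in control replicate 1.

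IGF2 mRNA was abundant in every library, between position 55 and position 226 of the 23524 genes when ranked by FPKM. It measured 844.3, 229.3 and 480.9 FPKM (controls 1 to 3) and 503.3, 542.0 and 598.6 FPKM (EFTUD2 1 to 3). All 3 EFTUD2 libraries thus lay inside the range of the controls, whose highest library was 3.68 times the lowest. That spread is large for a gene of these cells, since 99.6% of the genes averaging 1 FPKM or more had a smaller range among the controls. The log2 fold change of IGF2, computed on log2(FPKM + 1) as for all genes here, was 0.27 (standard error 0.43, 95% interval -0.76 to 1.30, adjusted p = 0.76, limma). Its direction depended on the controls included, with a log2 fold change of 0.72 without control replicate 1 and of -0.22 without control replicate 2. Of the genes that overlap IGF2 on chromosome 11 (GRCh38, 2129117 to 2149566), the table lists the readthrough gene INS-IGF2, at 0.06 FPKM or less. How the authors' counting divides reads between these overlapping genes is not given in the sources used here.

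**Figure D1:**
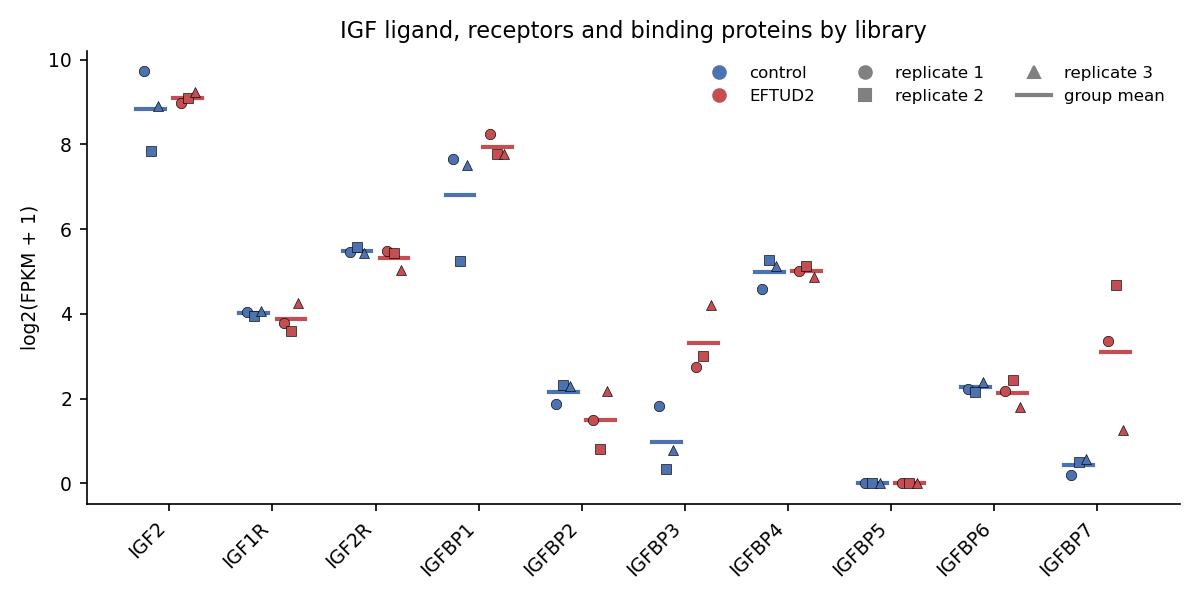
Level of the 10 genes in each library as log2(FPKM + 1), with control libraries in blue, EFTUD2 libraries in red, marker shapes for replicates 1 to 3 and bars for the mean of each group of 3. IGFBP1, IGFBP3 and IGFBP7 are the genes whose 3 red points all lie above the 3 blue ones, and IGF2 and IGFBP1 have their lowest point in control replicate 2.

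The 2 receptor mRNAs differed little in mean level between the groups, and neither passed the test. IGF1R (chromosome 15, 98648539 to 98964530) measured 15.5, 14.4 and 15.9 FPKM (controls 1 to 3) and 12.9, 11.0 and 18.2 FPKM (EFTUD2 1 to 3). EFTUD2 replicate 3 was above every control while the other two were below every control. The log2 fold change of IGF1R was -0.14 (standard error 0.18, 95% interval -0.58 to 0.29, adjusted p = 0.71, limma), and it was 0.0046 without EFTUD2 replicate 2 and -0.33 without EFTUD2 replicate 3. IGF2R (chromosome 6, 159969082 to 160111504) measured 42.9, 46.8 and 42.3 FPKM (controls 1 to 3) and 43.7, 42.6 and 31.6 FPKM (EFTUD2 1 to 3), with replicate 3 as the single library under the controls. Its log2 fold change was -0.17 (standard error 0.15, 95% interval -0.52 to 0.17, adjusted p = 0.57, limma), and -0.025 without EFTUD2 replicate 3. The level of IGF2R was 2.66 to 3.25 times that of IGF1R in the controls, and 3.40, 3.87 and 1.74 times in EFTUD2 replicates 1 to 3. EFTUD2 replicate 3 thus held the highest IGF1R and the lowest IGF2R of all 6 libraries. The intervals still allow IGF1R to be lower by as much as its bound of -0.58 on the log2 scale.

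IGFBP1 was the most abundant binding protein mRNA of the EFTUD2 cells and of control replicates 1 and 3. IGFBP1 measured 200.4, 37.3 and 183.0 FPKM (controls 1 to 3) and 301.0, 217.6 and 217.9 FPKM (EFTUD2 1 to 3). The groups did not overlap, but the gap between the highest control and the lowest EFTUD2 library was narrow next to the spread of the controls, which covered 5.37-fold. Of the genes averaging 1 FPKM or more, 99.9% had a smaller range among the controls. IGFBP1 gave a log2 fold change of 1.12 (standard error 0.61, 95% interval -0.34 to 2.58, adjusted p = 0.44, limma), which was 0.34 when control replicate 2 was left out. In that library 9 of the 10 hepatocyte markers, all but HNF4A, were also at their lowest among the controls. The part of those markers in the difference was not tested.

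IGFBP3 and IGFBP7 were the binding proteins that had the largest log2 fold changes of the 9 members tested, and each was above every control in all 3 EFTUD2 libraries, with its highest value in a different library. IGFBP3 measured 2.55, 0.27 and 0.73 FPKM (controls 1 to 3) and 5.76, 7.02 and 17.4 FPKM (EFTUD2 1 to 3). Its highest library was EFTUD2 replicate 3, at 2.48 times replicate 2. IGFBP3 had a log2 fold change of 2.33 (standard error 0.49, 95% interval 1.16 to 3.51), with an adjusted p of 0.32 from limma, and every EFTUD2 library lay above every control (two-sided p = 0.1 by exact permutation, the lowest value possible with 3 against 3). When single libraries were dropped in turn, its log2 fold change lay between 1.89 and 2.75, with adjusted p-values from limma of 0.11 or more.

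IGFBP7, a matrix-associated relative that binds IGFs with low affinity, was nearly silent in the controls, at 0.15, 0.43 and 0.50 FPKM. In EFTUD2 replicates 1 to 3 it stood at 9.20, 24.8 and 1.40 FPKM, so its lowest EFTUD2 library was the one in which IGFBP3 was highest. The highest EFTUD2 library was 17.7 times the lowest, and 99.8% of the genes averaging 1 FPKM or more had a smaller range within this group. Its log2 fold change was 2.67 (standard error 0.78, 95% interval 0.82 to 4.52, adjusted p = 0.40, limma). Without EFTUD2 replicate 3 the log2 fold change was 3.59 and the adjusted p from limma 0.030, so that this 1 library decided the call. In that fit 0.761% of all genes had an adjusted p under 0.05. When libraries were weighted by their spread, 3 of the 9 members (IGFBP2, IGFBP3 and IGFBP7) had one, as did 7.87% of all genes. IGFBP7 (chromosome 4, 57030773 to 57110385) overlaps POLR2B, a subunit gene of RNA polymerase II on the opposite strand, and the sources used here do not say whether strand was counted. POLR2B lay between 28.5 and 31.6 FPKM in the controls and between 20.0 and 29.6 FPKM in the EFTUD2 libraries.

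The levels of IGFBP7 are set here beside those of 6 genes that were chosen from earlier results of these data for being low in control cells and present in EFTUD2 cells. Relative to EFTUD2 replicate 2, IGFBP7 stood at 0.37 in replicate 1 and at 0.056 in replicate 3. The same ratios were 0.39 and 0.048 for vimentin (VIM), an intermediate filament of mesenchymal cells, and 0.47 and 0.050 for the lactate dehydrogenase subunit LDHB. They were 0.46 and 0.080 for CD44, 0.50 and 0.069 for KRT17, 0.40 and 0.013 for KRT7, and 0.57 and 0.051 for IL6. IGFBP3 gave 0.82 and 2.48, with its highest value in replicate 3. The 6 genes (VIM, CD44, LDHB, KRT17, KRT7 and IL6) summed to between 1.98 and 3.01 FPKM in the controls and to between 16.4 and 320.3 FPKM in the EFTUD2 libraries. KRT7 stood at 0.78 FPKM in EFTUD2 replicate 3, inside its range of 0.61 to 1.34 FPKM in the controls. Since the genes were picked on the same libraries, their likeness to IGFBP7 is a description only. The order is also common in the table. Of the 1364 genes tested with every EFTUD2 library above every control, 474 were highest in EFTUD2 replicate 2 and lowest of that group in replicate 3.

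Markers of other cell types gave mixed values beside IGFBP7. The 10 fibroblast markers summed to between 0.53 and 1.62 FPKM in the controls and to between 2.44 and 8.03 FPKM in the EFTUD2 libraries, with COL1A2 at 0 and THY1 at 0.01 FPKM or less in every library. COL5A1 was at 0.01 FPKM in each control and measured 1.07, 3.18 and 0.11 FPKM (EFTUD2 1 to 3), and COL3A1 was at 0 in the controls and measured 0.62, 1.49 and 0.14 FPKM. COL1A1, with 0.78, 2.05 and 0.11 FPKM, and LUM, with 0.35, 0.56 and 0.01 FPKM, were also highest in EFTUD2 replicate 2 and lowest of their group in replicate 3, as IGFBP7 was. PDGFRB went the other way, lowest of the EFTUD2 group in replicate 2 and highest in replicate 3, with 1.10, 0.68 and 2.07 FPKM. It held most of the control sums, with 1.43, 0.41 and 1.05 FPKM (controls 1 to 3), and its groups overlapped. COL6A3, DCN and PDGFRA stayed at 0.04 FPKM or less. The 6 squamous or basal epithelial markers summed to between 34.7 and 51.9 FPKM and to between 39.3 and 198.1 FPKM. Most of the control sums was SFN, at 33.5, 50.1 and 42.5 FPKM (controls 1 to 3). In EFTUD2 replicates 1 to 3 SFN measured 44.3, 62.1 and 29.9 FPKM, with overlapping groups. KRT17, which also stands among the 6 genes above, reached up to 135.1 FPKM. KRT14 was at 0.01 FPKM or less in the controls and measured 0.29, 0.83 and 0.09 FPKM (EFTUD2 1 to 3). KRT5 was at 0 in every library, and KRT6A and TP63 were at 0.01 FPKM or less. Endothelial markers summed to between 1.09 and 1.53 FPKM and to between 1.29 and 1.60 FPKM, with KDR at 0.01 FPKM or less. In that sum CDH5 (mean 0.07 against 0.25 FPKM) and VWF (0.25 against 0.53 FPKM) were higher in every EFTUD2 library than in every control, and PECAM1 (0.85 to 1.19 against 0.54 to 0.81 FPKM) was lower in every one. The 6 macrophage markers summed to between 17.6 and 31.5 FPKM in the controls and to between 26.6 and 35.6 FPKM in the EFTUD2 libraries, almost all of it CD68, with TYROBP at 0 and PTPRC at 0.02 FPKM or less. CD14 measured 0.86, 0.60 and 1.03 FPKM (controls 1 to 3) and 1.41, 2.06 and 2.51 FPKM (EFTUD2 1 to 3), with the groups apart. The part of these markers in the difference of IGFBP7 was not tested. In such bulk RNA, fewer cells of a type and less RNA per cell cannot be told apart.

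**Figure D2:**
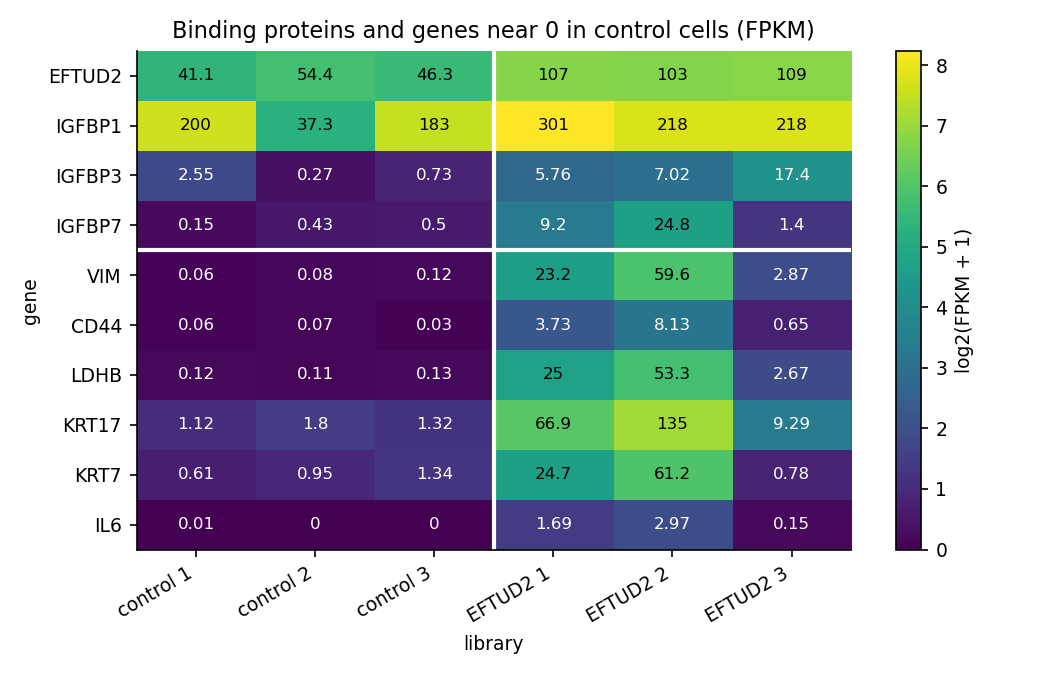
FPKM of EFTUD2, IGFBP1, IGFBP3, IGFBP7 and 6 genes at 1.80 FPKM or less in control cells. Each library has a column, with the value printed in each cell and the color giving log2(FPKM + 1). IGFBP7 is highest in EFTUD2 replicate 2 (24.8 FPKM) like the genes under the white line, whereas IGFBP3 is highest in EFTUD2 replicate 3 (17.4 FPKM).

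The other binding proteins showed smaller differences. IGFBP2, a binding protein of fetal liver, measured 2.68, 4.01 and 3.89 FPKM (controls 1 to 3) and 1.83, 0.77 and 3.56 FPKM (EFTUD2 1 to 3). Replicates 1 and 2 were below all controls and replicate 3 was not. For IGFBP2 the log2 fold change was -0.66 (standard error 0.34, 95% interval -1.47 to 0.15, adjusted p = 0.43, limma), and it was -1.0 without EFTUD2 replicate 3 and -0.32 without EFTUD2 replicate 2.

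IGFBP4 (chromosome 17, 40443450 to 40457725), an inhibitor of IGF action that is cut by the protease PAPPA, measured 23.0, 37.8 and 33.9 FPKM (controls 1 to 3) and 31.5, 34.1 and 28.3 FPKM (EFTUD2 1 to 3), all inside the range of the controls. Its log2 fold change was 0.012 (standard error 0.19, 95% interval -0.44 to 0.47, adjusted p = 0.98, limma), a value whose sign turned in 4 of 16 alternative fits, among them the scaling to a common sum per library. IGFBP6 (chromosome 12, 53097667 to 53102340), which prefers IGF2 over IGF1, stood at 3.70, 3.47 and 4.28 FPKM and at 3.56, 4.42 and 2.49 FPKM, with overlapping groups. For IGFBP6 the log2 fold change was -0.12 (standard error 0.19, 95% interval -0.57 to 0.33, adjusted p = 0.76, limma), and 0.049 without EFTUD2 replicate 3. IGFBP5 was listed at 0 in 5 libraries and at 0.01 FPKM in control replicate 3, which is too low to be tested.

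**Figure D3:**
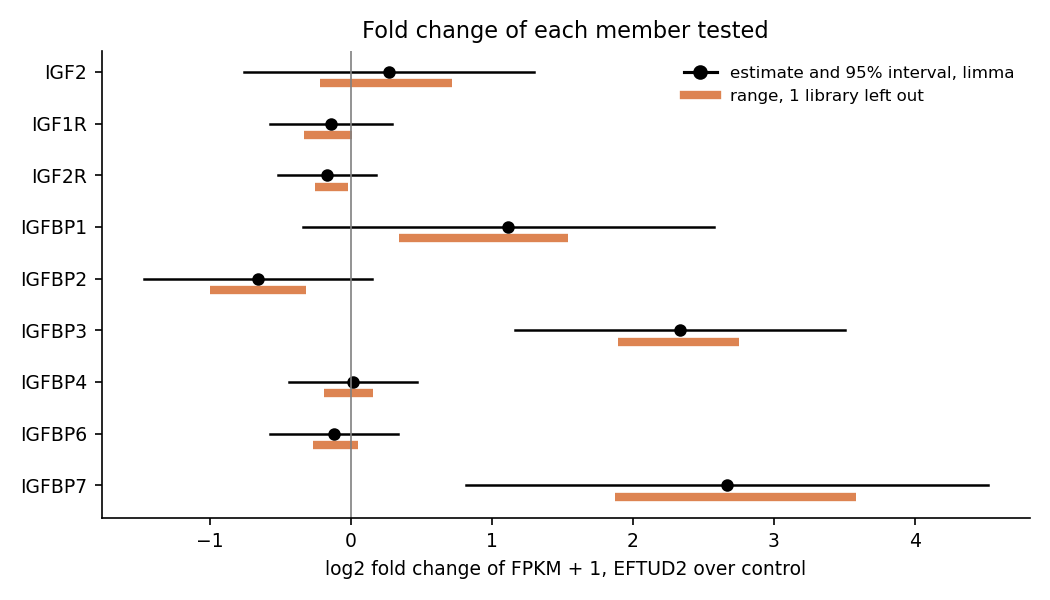
Log2 fold change of FPKM + 1, EFTUD2 over control, for the 9 genes tested, with the limma estimate and its 95% interval in black and the range over the 6 fits that each left out 1 library in orange. The intervals of IGFBP3 (1.16 to 3.51) and IGFBP7 (0.82 to 4.52) lie above 0, and those of the other 7 genes include 0.

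Of the 10 members, 9 averaged 0.1 FPKM or more across the 6 libraries and were tested among 17222 genes. An adjusted p under 0.05 was found for 0 of the 9, and for 0% of all genes. The groups did not overlap, with EFTUD2 higher, for 3 of the 9 members (IGFBP1, IGFBP3 and IGFBP7) and for 7.92% of all genes tested, and with EFTUD2 lower for 0 of the 9 and for 19.4%. An unadjusted p under 0.05 from limma was found for 2 of the 9 members, IGFBP3 and IGFBP7, both higher in EFTUD2 cells, where 4.40% of all genes had such a p in this direction and 7.90% in the other. Of the genes with such a p, 35.7% were higher on the values as deposited and 61.4% after scaling by the median of ratios. These 2 members had an unadjusted p under 0.05 in each of the fits that left out 1 library, in which 2.16 to 7.82% of all genes had one and were higher. Without EFTUD2 replicate 3, IGFBP2 and IGF1R, both lower, had one as well, as did 8.87% of all genes in that direction. The median log2 fold change was 0.012 over the 9 members and -0.075 over all genes tested.

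The mixture of binding protein mRNAs was next described as each gene's share of their summed FPKM. The sum over the 7 genes was 232.5, 83.3 and 226.3 FPKM in control replicates 1 to 3 and 352.8, 288.8 and 271.0 FPKM in EFTUD2 replicates 1 to 3. IGFBP1 made up 86.2, 44.8 and 80.9% of it in the controls and 85.3, 75.4 and 80.4% in the EFTUD2 libraries. Control replicate 2 was the exception, where IGFBP4 (45.4%) was level with IGFBP1. With IGFBP1 set aside, IGFBP4 was the main component in every library, with 71.7 to 82.2% in the controls and 48.0 to 60.8% in the EFTUD2 libraries. IGFBP7 made up 17.7 and 34.9% of this remainder in EFTUD2 replicates 1 and 2 and 2.64% in replicate 3, against 1.15% or less in the controls. IGFBP3 made up 11.1, 9.86 and 32.8% in EFTUD2 replicates 1 to 3, against 7.94, 0.59 and 1.69% in control replicates 1 to 3. The EFTUD2 libraries thus each held more IGFBP3 and IGFBP7 next to IGFBP4, in proportions that differed from library to library. The level of IGF2 was 3.63, 2.75 and 2.13 times the summed IGFBP level in the controls and 1.43, 1.88 and 2.21 times in the EFTUD2 libraries, and these ranges overlap.

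**Figure D4:**
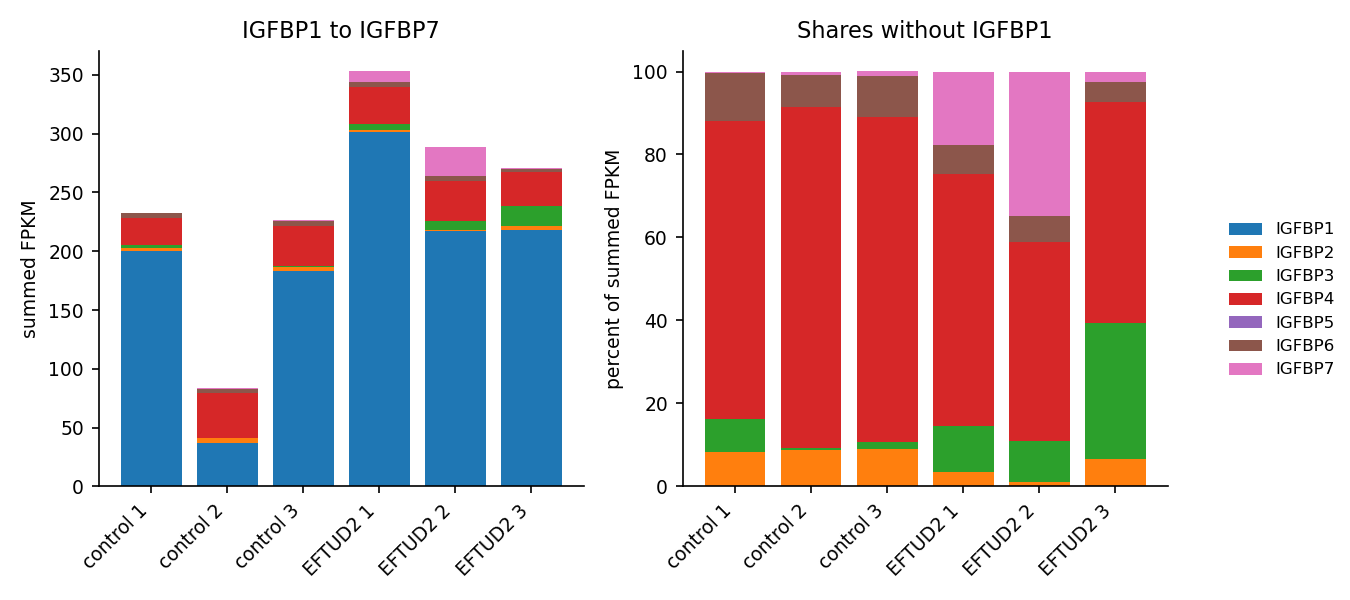
Left, summed FPKM of IGFBP1 to IGFBP7 in each library, stacked by gene. Right, percent of the summed FPKM of the 6 genes other than IGFBP1, where IGFBP7 reaches 34.9% in EFTUD2 replicate 2 and IGFBP3 reaches 32.8% in EFTUD2 replicate 3.

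A pair of members on chromosome 7 and a pair on chromosome 2 are genomic neighbors. IGFBP1 (chromosome 7, 45888488 to 45893660) lies 18584 bases from IGFBP3 (45912245 to 45921272) in the RefSeq genes of GRCh38. Both were lowest in control replicate 2 and above all controls in the EFTUD2 libraries, but their order within the EFTUD2 group differed, since IGFBP1 was highest in replicate 1 and IGFBP3 in replicate 3. IGFBP1 stood at 78.6 to 250.6 times the level of IGFBP3 in the controls and at 12.5 to 52.3 times in the EFTUD2 libraries. IGFBP2 (chromosome 2, 216632828 to 216664436) and IGFBP5 (216672105 to 216695549) lie 7668 bases apart, and of these IGFBP2 was expressed while IGFBP5 was at or near 0.

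Further genes of the pathway were taken from a list of 43 by their roles, of which 41 were in the table and 33 could be tested. The ligand gene IGF1 stood at 0.05 FPKM or less in every library, so IGF2 was the IGF transcript of these cells. Of the 33 genes, 0 had an adjusted p under 0.05, 3 were higher in EFTUD2 cells with an unadjusted p under 0.05 and 2 were lower, with 4.40 and 7.90% of all genes as the background. The 3 that were higher are HTRA1, PAPPA and IRS2, whose control means were 0.067, 0.043 and 0.06 FPKM, so each reached the minimum mean of 0.1 FPKM only through the EFTUD2 libraries and had to differ, and nothing is read from their count. Among the 33, the groups did not overlap for 5 genes that were higher, these 3 included, and 6 that were lower, against 7.92 and 19.4% of all genes. The median log2 fold change of the list was -0.088. Downstream of the receptors, 0 of the 12 genes of the PI3K-AKT branch had an unadjusted p under 0.05 in either direction. With shares of 4.40 and 7.90% over all genes and 12 genes, nothing is read from this count. In 2 of the 12 every EFTUD2 library was below every control, against 19.4% of all genes.

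Among the proteases that cut binding proteins, HTRA1 measured 0.08, 0.05 and 0.07 FPKM (controls 1 to 3) and 1.28, 3.14 and 0.23 FPKM (EFTUD2 1 to 3), with the groups apart (log2 fold change 1.09, standard error 0.40, adjusted p = 0.40, limma). PAPPA, which cuts IGFBP4, stood at 0.03 to 0.07 FPKM and at 0.27, 0.50 and 0.14 FPKM (log2 fold change 0.31, standard error 0.11, adjusted p = 0.40, limma). ADAM9, listed in the same role, was far more abundant, at 58.7 to 65.2 FPKM in the controls and 47.3 to 59.2 FPKM in the EFTUD2 libraries, with overlapping groups. The protease inhibitor gene STC2 was higher in every EFTUD2 library, at 23.6 to 28.4 FPKM against 16.6 to 21.8 FPKM (adjusted p = 0.40, limma). The receptor adaptor IRS2 stood at 0.04 to 0.10 FPKM and at 0.48, 0.96 and 0.18 FPKM (log2 fold change 0.51, standard error 0.18, adjusted p = 0.40, limma). HTRA1, PAPPA and IRS2 passed the filter only through the EFTUD2 libraries, so nothing is read from their p-values or from the separation of their groups. In these 3 genes EFTUD2 replicate 2 was highest and replicate 3 lowest of its group. Over the whole table, 474 of the 1364 genes with every EFTUD2 library above every control had this order.

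SOCS2 and IGF2BP1 were the 2 with an unadjusted p under 0.05 and lower values, and neither passed the adjusted test. SOCS2, a feedback inhibitor of growth hormone signaling, measured 2.52, 2.99 and 2.70 FPKM (controls 1 to 3) and 1.41, 1.46 and 0.82 FPKM (EFTUD2 1 to 3), with the groups apart (log2 fold change -0.76, standard error 0.16, adjusted p = 0.32, limma). IGF2BP1, which binds IGF2 mRNA among other targets, stood at 76.5, 88.4 and 79.8 FPKM and at 67.8, 61.2 and 43.0 FPKM (log2 fold change -0.52, standard error 0.18, adjusted p = 0.40, limma). Every EFTUD2 library was below every control in both genes.

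**Figure D5:**
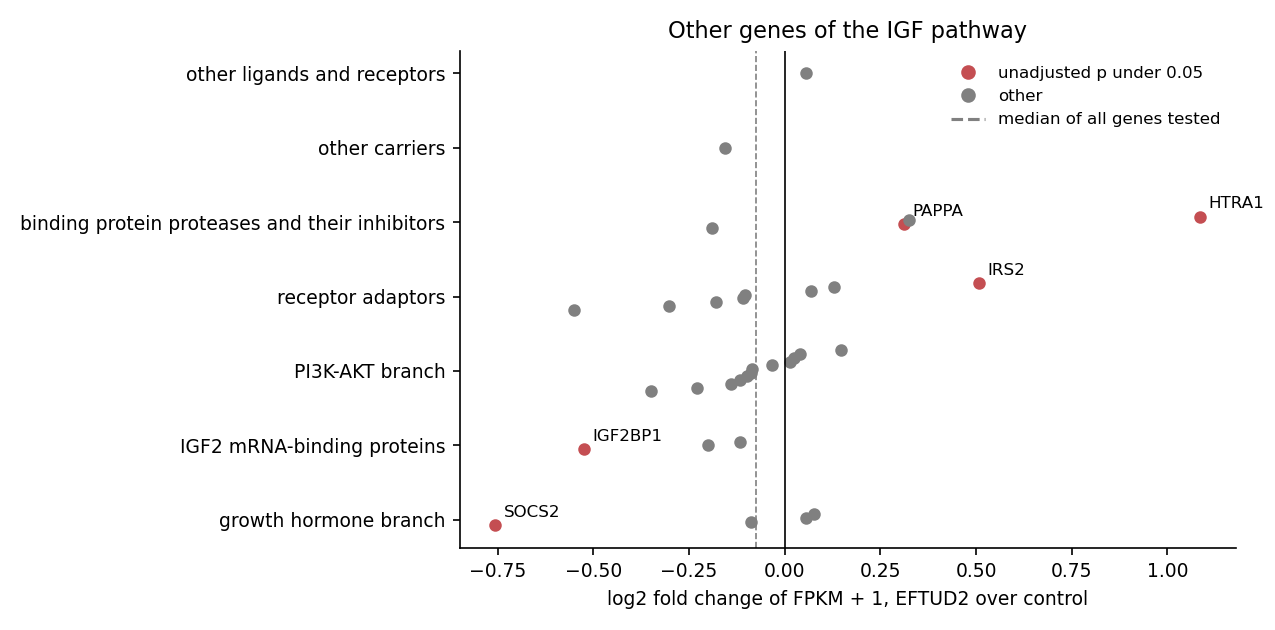
Log2 fold change of FPKM + 1, EFTUD2 over control, for the 33 further pathway genes tested, a point for each gene in the row of its role, with genes at an unadjusted p under 0.05 in red and named. HTRA1 (1.09) lies farthest to the right and SOCS2 (-0.76) farthest to the left, and the dashed line marks the median of all genes tested (-0.075). HTRA1, PAPPA and IRS2 passed the filter only through the EFTUD2 libraries.

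For members that ranged by more than 1 on the log2 scale, the genes with the most similar profile over the 6 libraries were sought among genes averaging 1 FPKM or more, by the root-mean-square difference of log2 values centered on each gene's mean. For IGFBP7 the nearest gene with a symbol, after 2 unnamed transcripts, was ANXA1 (annexin A1), of 0.16, 0.33 and 0.34 FPKM (controls 1 to 3) and 9.68, 19.5 and 0.90 FPKM (EFTUD2 1 to 3), with a difference of 0.16 where IGFBP7 itself deviated by 1.67. For IGFBP3 it was LCN2 (lipocalin 2), at 17.0, 7.02 and 12.3 FPKM and at 52.6, 82.2 and 83.8 FPKM, with a difference of 0.40 against a deviation of 1.32, followed by SAA2. IGFBP1 was nearest to CP (ceruloplasmin), with a difference of 0.32 against 0.97, followed by SERPINA3 and CA9. IGF2 was nearest to IRX3, with a difference of 0.20 against 0.56, then to TNNI2 and CCDC183, and the nearest gene with a symbol to IGFBP2 was ACTA1, with a difference of 0.18 against 0.53. These likenesses rest on 6 libraries that share the same groups, and they are descriptions without a test.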

How the data were processed

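The authors extracted RNA with TRIzol, selected poly-A mRNA, sequenced it on a BGISEQ-500 and deposited FPKM values rounded to 2 decimals, 1 column for each of 6 libraries. The submitters' processing notes name hg38, HISAT2, Bowtie2 and RSEM, among other tools, without versions. Groups and replicate numbers came from the sample titles. Gene counts were not used here, so depth is unknown, and low values held no common step between libraries. From the deposited FPKM, values were put on the log2(FPKM + 1) scale, 17222 genes averaging 0.1 FPKM or more were kept, and EFTUD2 was compared with control by limma 3.58.1 with an intensity trend (R 4.3.3), with Benjamini-Hochberg adjustment over all genes and a threshold of 0.05. This scale understates changes of low genes. The fit was also run on simulated data, with independent noise for each library. An exact permutation test was run for each member. All 10 members were named, and IGF1 beside them after its values were seen. Genes of the pathway list were named where the unadjusted p was under 0.05, or where groups did not overlap and the log2 fold change was at least 0.5 in size. ADAM9 and STC2 were named outside this rule, after their values were seen. Members and lists were chosen with earlier results of these data known. Coordinates are from RefSeq (GRCh38.p14), and INS and H19 were not analysed here. Alternatives were pseudocounts, filters, scalings, robust and weighted fits, a replicate block and each library left out. Further steps used Python 3.11.15 and pandas 2.3.3.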

Additional observations from a re-analysis of the deposited data

How the results depend on the processing

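Of the 9 members tested, 0 had an adjusted p under 0.05 in the comparison as reported, and 0 also with other pseudocounts, filters and scalings, with robust empirical Bayes and with the replicate block. With array weights, which gave EFTUD2 replicate 3 a weight of 0.12, there were 3 (IGFBP2, IGFBP3 and IGFBP7), beside 725 higher and 630 lower genes, or 7.87% of the table. With 1 library left out there were 0 to 1 members, 0 to 119 higher genes and 0 to 12 lower genes, and the highest counts, IGFBP7 among them, came without EFTUD2 replicate 3. IGFBP1, IGFBP2, IGFBP3, IGFBP7 and IGF2R kept their direction under all 16 alternatives. The log2 fold change of IGFBP4 turned to -0.062 with array weights and to -0.029 with a common sum per library. With 1 library left out it lay between -0.19 and 0.15 for IGFBP4, between -0.33 and 0.0046 for IGF1R, between -0.22 and 0.72 for IGF2 and between -0.27 and 0.049 for IGFBP6. The cause of these turns was not tested. With pseudocounts of 0.1 and 0.01 the log2 fold change of IGFBP3 was 3.27 and 3.46 and that of IGFBP7 4.03 and 4.38. With scaling by the median of ratios, 61.4% of the genes with an unadjusted p under 0.05 were higher, against 35.7% as deposited.

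The labels do not say whether libraries with the same replicate number belong together. Their deviations from the group means correlated over genes at -0.30, 0.35 and -0.094 for numbers 1 to 3. Control replicate 1 correlated best with EFTUD2 replicate 3, at 0.38. These values cannot settle a pairing, since deviations within a group depend on each other and EFTUD2 replicate 3 stood apart. With the replicate block, 0 genes had an adjusted p under 0.05, and the adjusted p was 0.42 for both IGFBP3 and IGFBP7.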

Other observations

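The IGF-like (IGFL) genes are named for a likeness to IGFs but form a family of their own, and they were looked at after their values were seen. Their receptor gene IGFLR1 measured 1.17, 2.58 and 2.52 FPKM (controls 1 to 3) and 3.89, 4.61 and 4.12 FPKM (EFTUD2 1 to 3), which lay close together and above all controls (log2 fold change 0.79, standard error 0.22, adjusted p = 0.40, limma). The ligand genes IGFL1, IGFL2, IGFL3 and IGFL4 stood at 0.65 FPKM or less in every library.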
